A study of Mus musculus with 653 samples.

Results

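Glycolysis splits glucose into pyruvate, and gluconeogenesis runs the path backwards in liver and kidney through bypass enzymes of its own. At most steps the mouse genome holds several genes for the same reaction, the isozymes, and tissues differ in which of them they transcribe: the adult liver relies on the transporter Slc2a2 and the phosphofructokinase Pfkl, red cells and liver share the pyruvate kinase gene Pklr, and most growing tissues use Slc2a1, Hk2, Pkm and Ldha. Red cells, which lack mitochondria when mature, live on glycolysis and use Bpgm to make 2,3-bisphosphoglycerate, which loosens the grip of haemoglobin on oxygen.

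The genes described here are 29 members of these paths, taken from a fixed list and found by symbol among the 54195 genes of a raw read count table. They are the glucose carriers Slc2a1, Slc2a2 and Slc2a3, the glycolytic enzymes from Hk1 and Hk2 to Pkm and Pklr, the lactate step (Ldha, Ldhb, the monocarboxylate carriers Slc16a1 and Slc16a3, and Pdk1, which restrains pyruvate oxidation), and the gluconeogenic enzymes G6pc, Fbp1, Pck1 and Pck2. All 29 were found. The table holds single cells sequenced by Smart-seq2, a full-length method that reads each cell in its own library. The cells came from livers of mouse embryos at 2 days of gestation, E10.5 (414 cells) and E13.5 (239 cells), sired by Lgr5-EGFP-IRES-creERT2 males kept on C57BL/6 and borne by MF1 females. All were sorted as Liv2+, CD31- and CD45-, with no other gate (bulk, 362 cells) or additionally as Lgr5-GFP+ (291 cells), so the Lgr5 reporter allele is part of the cross behind both sorts. The labels name every cell a liver hepatoblast, and they name no animal, litter or culture. Each group therefore counts as 1 sample, no test between groups was possible, and the intervals given below are 95% intervals for counting error only. The cells fall into 5 library pools, and values are given by pool where they vary. The labels do not say whether a pool is 1 embryo, litter or sort. Pool 2 holds 33 of the 61 Afp+ cells described below.

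Cells were placed in lineages by reads of 3 marker genes, with more than 10 reads as the limit. Afp, the fetal albumin of hepatoblasts, marked 61 cells. Klf1, an erythroid transcription factor, marked 160 cells, and Pdgfra, a receptor of mesenchyme, marked 150. A further 10 cells passed more than 1 marker and 272 passed none, and both were left out of the lineage groups. The labelled cell type was thus marked in 61 cells. Marker lists were read in each lineage: 10 of 10 hepatoblast genes were highest in Afp+ cells, 9 of 10 erythroid genes in Klf1+ cells and 9 of 9 mesenchymal genes in Pdgfra+ cells (each count includes the marker itself). Lineage was tied to stage and sort. Of the Afp+ cells 53 were E10.5 Lgr5-GFP+, 6 were E10.5 bulk, 2 were E13.5 Lgr5-GFP+ and none was E13.5 bulk, where 0 cells allow a share of up to 1.89%. Of the Klf1+ cells 78.1% were E13.5 bulk, 32 were E10.5 bulk and 3 were E13.5 Lgr5-GFP+. Of the Pdgfra+ cells 76 were E10.5 bulk, 66 were E10.5 Lgr5-GFP+, 7 were E13.5 Lgr5-GFP+ and 1 was E13.5 bulk. Lineage, stage and sort cannot be told apart in the pooled values, so values from E10.5 cells alone are given beside them. Cells held 463347 to 2279700 reads, and the lineage medians lay between 1094182.5 and 1256109 reads.

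Levels are given as reads per 1000000 reads of the cells summed (RPM), and, wherever genes are compared with each other, as RPM per kilobase of exon (RPKM). A member was called between lineages when log2 of the ratio of RPM + 1 was at least 1 either way and had the same sign in each library pool with at least 5 cells on both sides. This is a rule of size and not a test, and it was applied to genes with a mean of at least 5 RPM over the 2 lineages.

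The sequences before the starts of the genes that differed most between lineages, or of their partners, come first, so that the members of an isozyme pair can be read side by side. They are from RefSeq on GRCm38.p6, are written 5′ to 3′ on the gene's own strand, cover up to 250 bases before an annotated start, and stop where an annotated exon begins. Capitals mark 3 motifs, searched on both strands: the GATA site AGATAA, read as TTATCT from the other strand, the CACCC box CCACACCC that KLF1 is known to bind, read as GGGTGTGG from the other strand, and the core of the hypoxia response element, ACGTG, read as CACGT from the other strand. The last overlaps itself where both strands hold it. The first pair is Pklr at chr3:89135892-89136141 (plus strand), before the upstream start, and at chr3:89136373-89136571 (plus strand), before the start that follows it. The second pair is Hk1 at chr10:62379909-62380158 (minus strand) and Hk2 at chr6:82774455-82774704 (minus strand). The last pair is Ldhb at chr6:142507958-142508207 (minus strand) and Ldha at chr7:46845554-46845803 (plus strand).
Pklr, upstream start: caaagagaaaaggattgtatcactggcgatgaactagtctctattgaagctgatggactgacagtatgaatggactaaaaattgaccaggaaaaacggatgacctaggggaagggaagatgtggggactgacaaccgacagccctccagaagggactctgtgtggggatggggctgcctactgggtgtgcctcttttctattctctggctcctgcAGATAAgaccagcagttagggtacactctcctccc
Pklr, downstream start: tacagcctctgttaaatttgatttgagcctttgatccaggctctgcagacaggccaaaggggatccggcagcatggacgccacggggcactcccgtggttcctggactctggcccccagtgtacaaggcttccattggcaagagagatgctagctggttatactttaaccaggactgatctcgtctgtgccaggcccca
Hk1: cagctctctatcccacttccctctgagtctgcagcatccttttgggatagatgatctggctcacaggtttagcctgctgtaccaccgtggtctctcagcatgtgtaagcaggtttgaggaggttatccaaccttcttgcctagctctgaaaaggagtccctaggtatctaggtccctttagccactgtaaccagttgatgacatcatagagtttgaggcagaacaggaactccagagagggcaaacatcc
Hk2: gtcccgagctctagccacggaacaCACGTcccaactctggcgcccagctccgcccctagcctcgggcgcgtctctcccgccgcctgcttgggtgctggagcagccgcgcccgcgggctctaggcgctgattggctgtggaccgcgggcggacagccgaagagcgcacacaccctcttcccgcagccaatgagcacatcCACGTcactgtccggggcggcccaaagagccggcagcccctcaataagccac
Ldhb: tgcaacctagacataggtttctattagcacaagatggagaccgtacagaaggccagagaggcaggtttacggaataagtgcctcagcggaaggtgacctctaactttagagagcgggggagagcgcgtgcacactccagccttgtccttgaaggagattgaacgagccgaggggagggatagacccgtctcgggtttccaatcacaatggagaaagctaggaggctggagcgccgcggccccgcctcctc
Ldha: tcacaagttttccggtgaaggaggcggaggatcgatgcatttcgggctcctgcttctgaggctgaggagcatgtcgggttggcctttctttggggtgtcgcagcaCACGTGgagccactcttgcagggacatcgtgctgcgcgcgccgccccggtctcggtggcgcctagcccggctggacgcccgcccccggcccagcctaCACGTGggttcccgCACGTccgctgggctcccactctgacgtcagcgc

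RefSeq gave 41 promoter rows, of 250 bases before and 50 bases after a start, for 28 of the 29 members. The upstream Pklr row held the GATA letters 35 bases before its start and the downstream row held none of the 3 motifs. The printed Hk1 row and the Ldhb row held none either. A second Hk1 row, for a start inside the gene, held the CACCC letters at 2 places, the nearer 51 bases before the start. Hk2 held the hypoxia core 226 and 52 bases before its start, and the printed Ldha row held it 5 times, the nearest 34 bases before. Of 32851 promoter rows in the table, 11.2% held the GATA letters, 3.56% the CACCC letters and 19.6% the hypoxia core. Among the 41 rows of the members 7, 4 and 15 held them, which came from 5, 4 and 13 genes. A match is only a run of letters, and which start was read in these cells was not measured.

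By uniquely aligned reads per length, the same few enzymes dominated all 3 lineages. A gene that shares exon sequence with other genes loses reads in this count and can rank too low. Gapdh stood at 9.01 RPKM in Afp+, 6.13 in Klf1+ and 11.6 in Pdgfra+ cells. It shares 25.1% of its exon windows, short stretches of exon, with 223 genes. Pgk1 shares 53.9% and Pgam1 36.2%, but Eno1 and Pkm, which ranked higher, also share 25.99% and 25.8%. The effect on the ranks was not tested. Ldha, which reduces pyruvate to lactate, had the highest RPKM in the summed cells of every lineage, at 760 in Afp+, 686 in Klf1+ and 476 in Pdgfra+ cells. Aldoa and Tpi1, which cut fructose 1,6-bisphosphate and interconvert its products, came next in Klf1+ cells at 338 and 333 RPKM. In Afp+ cells Ldhb ranked second at 635 RPKM, above Aldoa at 305 and Tpi1 at 243 RPKM. The order depended on the pool. In pool 2 Ldhb stood at 803 RPKM and Ldha at 499 RPKM, so that Ldhb led there. In pools 3 and 4 Ldhb stood at 355 and 253 RPKM, under Aldoa at 422 and 455 RPKM and Tpi1 at 371 and 280 RPKM. In Klf1+ cells Pklr, at 67.8 RPKM, and Pkm, at 60.2 RPKM, followed Eno1 at 78.3 RPKM. Summed over the 29 members, a cell's level had a median of 7670 RPM among Afp+, 6599 RPM among Klf1+ and 5810 RPM among Pdgfra+ cells, and the ranges over cells overlapped widely.

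**Figure D1:**
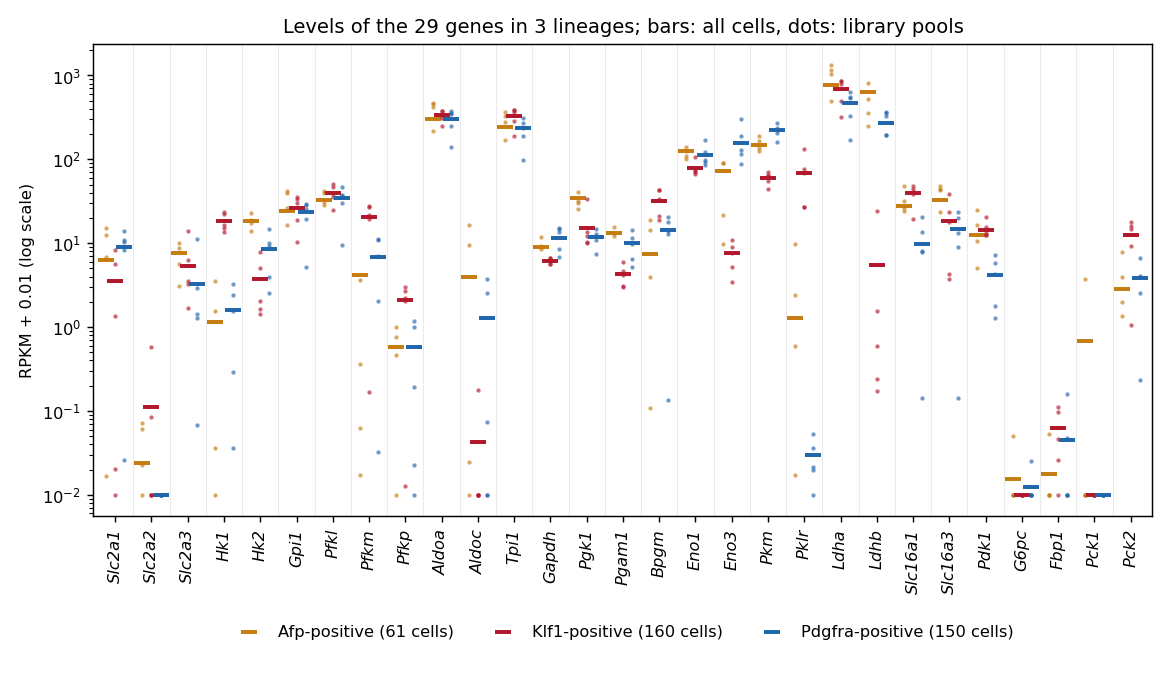
Level of each of the 29 genes in the 3 lineages, as RPKM + 0.01 on a log axis. Bars are all cells of a lineage summed (61 Afp+, 160 Klf1+, 150 Pdgfra+) and dots are library pools with at least 5 cells of it. Ldha, Aldoa and Tpi1 lie together in all 3 lineages, while Pklr, Hk1 and Ldhb part by lineage, and Slc2a2, G6pc, Fbp1 and Pck1 lie at the bottom.

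Klf1+ cells differed from Afp+ cells in 10 of the 25 members that passed the level filter. Higher in Klf1+ cells were Hk1, Pfkm, Bpgm and Pklr. Lower were Hk2, Pgk1, Pgam1, Eno3, Pkm and Ldhb. Of all 9891 genes tested, 11.5% were called higher and 14.8% lower, beside 4 and 6 of the 25 members. The median log2 ratio was -0.15 over the tested members and -0.01 over all tested genes. The other 15 tested members, Ldha, Aldoa, Tpi1, Eno1, Gapdh, Gpi1 and Pfkl among them, were not called. Pck2 was higher in the sum but lower in 1 of the 4 pools.

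Pklr is the pyruvate kinase gene of red cells and liver. Its level was 220 RPM in Klf1+ cells (217 to 222), 4.08 RPM in Afp+ cells and 0.065 RPM in Pdgfra+ cells. It passed 10 reads in 71.2% of the 160 Klf1+ cells, 4 of 61 Afp+ cells and none of 150 Pdgfra+ cells, which allows a share of up to 2%. Afp+ cells, the hepatoblast lineage, thus held little of a gene that the adult liver transcribes. Over pools the Klf1+ level ran from 86.7 to 427 RPM and the Afp+ level from 0.023 to 31.8 RPM, so the pools of the 2 lineages did not overlap. The log2 ratio of Klf1+ over Afp+ cells was 5.44, and it lay between 2.77 and 6.45 in the 4 pools compared. Pklr shares 20.5% of its 50-base exon windows with 1 other gene.

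Pkm, the pyruvate kinase gene of most other tissues, went the other way but was not lost. Its level was 742 RPM in Afp+, 301 RPM in Klf1+ and 1116 RPM in Pdgfra+ cells, and it passed 10 reads in 93.4%, 78.8% and 95.3% of them. The log2 ratio of Klf1+ over Afp+ cells was -1.30. The kinase pair was mixed within single Klf1+ cells: 97 of 160 passed 10 reads of both genes, 17 of Pklr alone, 29 of Pkm alone and 17 of neither. Per kilobase, Pklr made up 52.99% of the pair in Klf1+ cells, with a range over pools of 29.6% to 70.7%, and 0.84% in Afp+ cells. Pkm reads do not separate its M1 and M2 splice forms in a table of gene totals.

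Hexokinases, which trap glucose as glucose 6-phosphate, changed partner. Hk1 stood at 159.1 RPM in Klf1+ cells, 9.83 RPM in Afp+ cells and 13.4 RPM in Pdgfra+ cells. It passed 10 reads in 110 of 160, 2 of 61 and 22 of 150 cells. A single Afp+ cell held 76.01% of the Afp+ reads of Hk1, and without the cell with most reads on each side the levels were 148.3 and 2.40 RPM. Hk2 ran the opposite way at 22.6 RPM in Klf1+, 110 RPM in Afp+ and 50.2 RPM in Pdgfra+ cells. Hk1 made up 83.1% of the pair per kilobase in Klf1+ cells (63.8% to 93.5% over pools), 5.90% in Afp+ cells and 15.8% in Pdgfra+ cells. Without pool 2 the Afp+ share was 2.52%. In single cells, 72 of 160 Klf1+ cells passed 10 reads of Hk1 alone and 8 of Hk2 alone, whereas 41 of 61 Afp+ cells passed 10 reads of Hk2 alone and 1 of Hk1 alone.

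Lactate dehydrogenase gave the largest drop. Ldhb, the heart-type subunit, stood at 997 RPM in Afp+ cells, 429 RPM in Pdgfra+ cells and 8.58 RPM in Klf1+ cells. It passed 10 reads in 93.4% of Afp+, 74% of Pdgfra+ and 1.88% (3 of 160) of Klf1+ cells. Even the small Klf1+ value rested on 1 E10.5 cell, which held 1331 reads and 86.5% of the total. Without the cell with most reads on each side the Klf1+ level was 1.16 RPM, and the log2 ratio to Afp+ cells was -8.75 in place of -6.70. Ldha, the muscle-type subunit, varied less, at 2517, 2271 and 1576 RPM in Afp+, Klf1+ and Pdgfra+ cells. At E10.5 alone it stood at 3423 RPM in Klf1+ and 1580 RPM in Pdgfra+ cells, a log2 ratio of 1.12. Ldhb was 45.5% of the pair per kilobase in Afp+ cells, 36.5% in Pdgfra+ cells and 0.79% in Klf1+ cells. Over pools the Afp+ share ran from 16.1% to 61.7%, the Pdgfra+ share from 23.6% to 68.1% and the Klf1+ share from 0.019% to 4.70%. Without pool 2 the Afp+ share was 27.6%, and without pool 1, which holds the single high cell, the Klf1+ share was 0.098%. Ldhb shares 20.99% of its exon windows with 1 other gene.

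**Figure D2:**
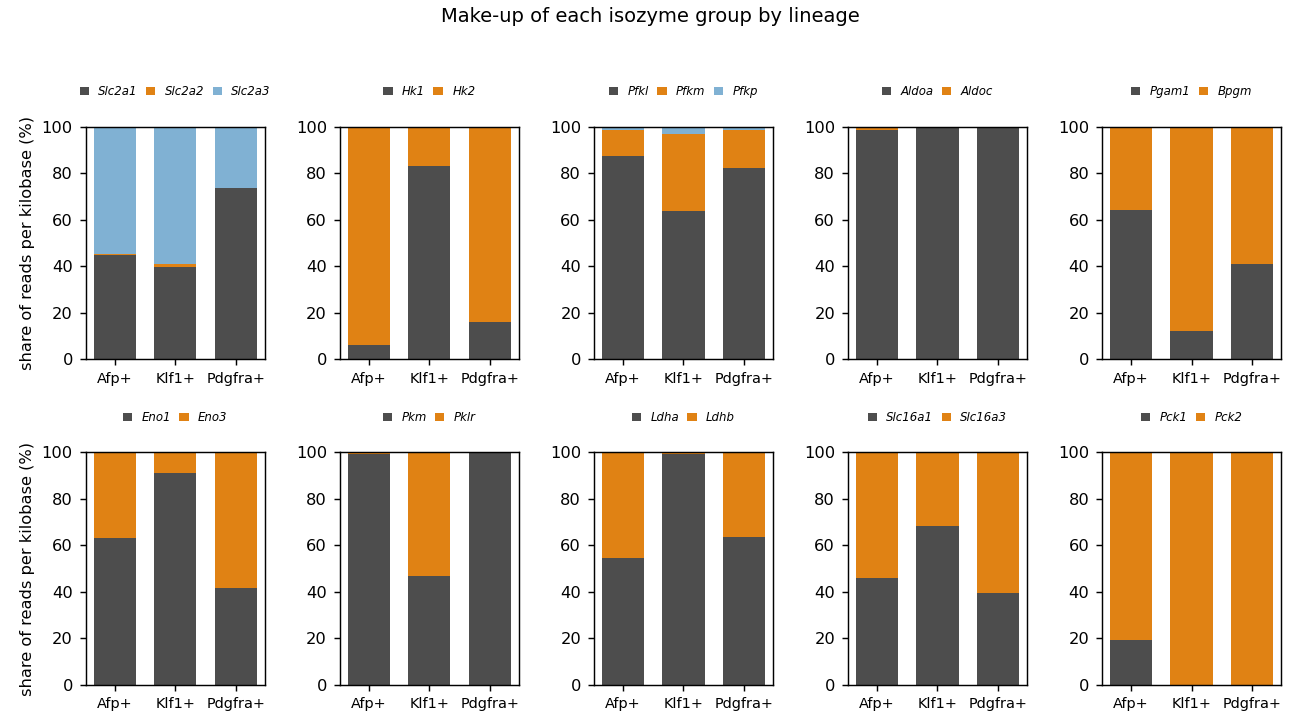
Make-up of the 10 isozyme groups in Afp+, Klf1+ and Pdgfra+ cells, as the share of summed reads per kilobase in percent (bars stack to 100). Klf1+ cells stand apart in Hk1 (83.1%), Bpgm (87.98%), Pklr (52.99%) and Ldhb (0.79%). Bpgm is grouped with Pgam1 although their main reactions differ.

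The mutase step split likewise. Bpgm stood at 113.9 RPM in Klf1+, 26.4 RPM in Afp+ and 51.9 RPM in Pdgfra+ cells. Pgam1, the glycolytic mutase, was lowest in Klf1+ cells at 8.60 RPM, against 26.1 RPM in Afp+ and 19.9 RPM in Pdgfra+ cells. Over pools Bpgm ran from 67.1 to 155.2 RPM in Klf1+, 0.35 to 67.7 RPM in Afp+ and 0.45 to 74.1 RPM in Pdgfra+ cells, so the lineages overlapped. Bpgm took 87.98% of the pair per kilobase in Klf1+ cells, 35.8% in Afp+ cells and 58.98% in Pdgfra+ cells. Over pools these shares ran from 77.96% to 93.5%, 0.74% to 59.1% and 2.39% to 68.6%. With unshared exon windows as length, the Pdgfra+ share was 47.9%. Bpgm was patchy: it passed 10 reads in 62 of 160 Klf1+ cells, and its median Klf1+ cell had 2.09 RPM. Pgam1 shares 36.2% of its exon windows with 4 other genes, so reads that align to more than 1 place are missing from its count.

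Phosphofructokinase, which commits sugar to glycolysis, is built in red cells from the L and M subunits. Pfkl was the main gene in each lineage, at 218 RPM in Afp+, 267 RPM in Klf1+ and 229 RPM in Pdgfra+ cells, and was called in no comparison of lineages. Pfkm was higher in Klf1+ cells, at 68.4 RPM against 13.9 RPM in Afp+ and 22.8 RPM in Pdgfra+ cells. Over pools with at least 5 cells it ran from 0.54 to 91.6 RPM in Klf1+, 0.023 to 12.04 RPM in Afp+ and 0.075 to 37.5 RPM in Pdgfra+ cells. In pool 2 the 21 Klf1+ cells held only 15 reads of it. One Afp+ cell held 82.9% of the Afp+ reads of Pfkm. Pfkm passed 10 reads in 66 of 160 Klf1+, 2 of 61 Afp+ and 26 of 150 Pdgfra+ cells. Pfkp, the platelet-type subunit, stood at 27.8 RPM in Klf1+, 7.72 RPM in Afp+ and 7.57 RPM in Pdgfra+ cells and among the lineages was called against Pdgfra+ cells only.

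Afp+ cells were also set against Pdgfra+ cells, which are marked as mesenchyme. Of 24 tested members 1, Eno3, was higher in Pdgfra+ cells and 7 were lower: Slc2a3, Hk2, Pgk1, Ldhb, Slc16a1, Slc16a3 and Pdk1. Across 10808 genes, 14.1% were called higher and 8.06% lower, and the median log2 ratio was -0.05 over the tested members and 0.18 over all genes. Slc16a1 and Slc16a3 carry lactate across the membrane, and Pdk1 restrains pyruvate oxidation. Slc16a1 stood at 123.6 RPM in Afp+, 174.004 RPM in Klf1+ and 42.7 RPM in Pdgfra+ cells, and Pdk1 at 98.7, 112.4 and 32.8 RPM. The glucose carrier Slc2a3 stood at 55.9 RPM in Afp+ and 23.8 RPM in Pdgfra+ cells, of which 1 cell held 56.6%. Pgk1, the first ATP-making enzyme of the path, stood at 77.4 RPM in Afp+, 33.8 RPM in Klf1+ and 26.6 RPM in Pdgfra+ cells, and shares 53.9% of its exon windows with 5 other genes.

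Eno3, the muscle-type enolase, was highest in Pdgfra+ cells. It stood at 275 RPM there, 127.3 RPM in Afp+ cells and 13.3 RPM in Klf1+ cells. It passed 10 reads in 70 of 150, 19 of 61 and 16 of 160 cells. The general enolase Eno1 varied less, at 606, 675 and 421 RPM in the same order. The log2 ratio of Eno3 between Pdgfra+ and Afp+ cells was 1.10, and 0.92 with size factors by the median of ratios, where it was no longer called. That scaling set the median log2 ratio of all genes between these lineages from 0.18 to 0.01.

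Klf1+ cells differed from Pdgfra+ cells in 13 of 24 tested members. The Klf1+ cells are those of the comparison with Afp+ cells, so both rest on the same values. Higher in Klf1+ cells were Hk1, Pfkm, Pfkp, Bpgm, Pklr, Slc16a1, Pdk1 and Pck2, and lower were Slc2a1, Pgam1, Eno3, Pkm and Ldhb. Of 10539 genes tested, 10.9% were called higher and 20.2% lower, beside 8 and 5 of the 24 members. The median log2 ratio was 0.33 over the tested members and -0.16 over all tested genes. Pck2, the mitochondrial phosphoenolpyruvate carboxykinase, stood at 96.5 RPM in Klf1+ and 29.9 RPM in Pdgfra+ cells. Slc2a1, the glucose carrier of most embryonic tissues, stood at 12.4 RPM in Klf1+ and 31.9 RPM in Pdgfra+ cells. Its pools ran from 0.057 to 49.6 RPM among Pdgfra+ cells, so its level was poorly fixed.

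**Figure D3:**
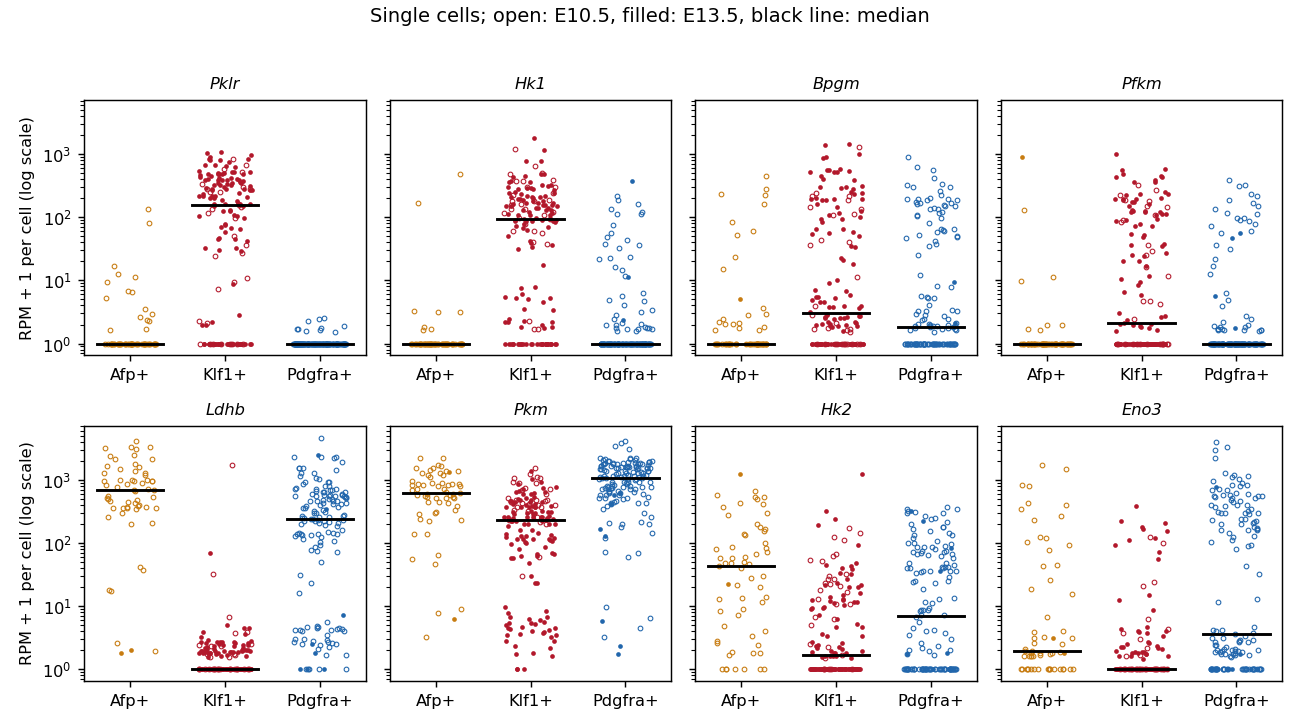
Level of 8 genes in each single cell, as RPM + 1 on a log axis, for Afp+, Klf1+ and Pdgfra+ cells. Open circles are E10.5 cells, filled circles are E13.5 cells and black lines are medians over cells. Pklr and Hk1 are highest in the Klf1+ column, where 76.25% and 81.9% of cells had a read of them. Ldhb is lowest there, with 3 of 160 Klf1+ cells past 10 reads of Ldhb.

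Because Klf1+ cells were mostly from E13.5 and Afp+ cells almost all from E10.5, the lineages were compared again at E10.5 alone, with 32 Klf1+ cells, 59 Afp+ cells and 94.7% of the Pdgfra+ cells. Against Afp+ cells, 4 of the 10 calls held: Pklr at a log2 ratio of 4.95, Hk1 at 4.38, Hk2 at -1.78 and Ldhb at -4.82. The other 6 kept their direction in the summed cells but were not called, by size or by the pools: Pfkm at 4.22, Bpgm at 1.71, Eno3 at -3.74, Pkm at -0.41, Pgk1 at -0.68 and Pgam1 at -0.60. Sort still differed there, since all 32 Klf1+ cells were bulk and 53 of the 59 Afp+ cells were Lgr5-GFP+. Against the 6 bulk Afp+ cells, too few for calls, the log2 ratios were 3.99 for Pklr, 7.41 for Hk1, -5.23 for Ldhb and -0.83 for Hk2, the last below the size of a call. Pgk1, lower in Klf1+ cells in the pooled values, was at 0.14 there. Between Pdgfra+ and Afp+ cells 7 of the 8 calls held at E10.5, all but Hk2 at -0.97. Within the E10.5 Lgr5-GFP+ sort, 66 Pdgfra+ against 53 Afp+ cells, Ldhb (-1.47), Pgk1 (-1.45), Slc16a1 (-1.74) and Pdk1 (-1.40) were past the size of a call, and Eno3 (0.68), Slc2a3 (-0.75), Slc16a3 (-0.99) and Hk2 (-0.92) were not. Against the 6 bulk Afp+ cells, Slc2a3 (1.62) and Slc16a1 (1.07) turned. Between Klf1+ and Pdgfra+ cells 9 of the 13 held, all but Slc2a1 at -0.68, Pfkm at 1.40, Pgam1 at -0.22 and Bpgm at 0.73. Within the bulk sort at both stages 12 of the 13 held, all but Bpgm. Within the bulk sort at E10.5, 32 against 76 cells, Slc2a1 (-0.90), Pgam1 (-0.20) and Bpgm (0.66) were below the size of a call, and the other 10 were past it. Some tested members passed the size of a call at E10.5 but not in the pooled values, with pools not considered. For Klf1+ over Afp+ cells these were Gapdh (-1.57) and Slc16a1 (1.25). For Klf1+ over Pdgfra+ cells they were Ldha (1.12), Slc16a3 (1.47), Slc2a3 (1.06) and Gapdh (-1.94). For Pdgfra+ over Afp+ cells it was Pfkm (2.82).

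The share of cells with a read was also set at 1 depth. Each cell was thinned at random to 100000 reads, which left out no cell. A read of Hk1 was then found in 71.9% of Klf1+ cells (64.2% to 78.7%), 3.28% of Afp+ cells and 15.3% of Pdgfra+ cells. A read of Pklr was found in 71.9%, 8.20% and 1.33% of them. Ldhb was found in 8.12% of Klf1+ cells (4.40% to 13.49%), 91.8% of Afp+ cells and 78.7% of Pdgfra+ cells. Before thinning, 70 Klf1+ cells had a read of Ldhb and 3 had more than 10. The pools differed in the share of Klf1+ cells with more than 10 reads. For Pklr it was 40.6% and 28.6% in pools 1 and 2 and between 86.2% and 94.1% in pools 3, 4 and 5. For Hk1 it was 28.1% and 28.6% against 82.8% to 91.2%. The part of this difference between pools in the lineage values was not tested, but the direction of both genes was the same in each pool compared.

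Of the gluconeogenic bypass, G6pc, Fbp1 and Pck1 were at or near 0, while Pck2, described above, passed 10 reads in 72 of 160 Klf1+ cells, 9 of 61 Afp+ cells and 32 of 150 Pdgfra+ cells. G6pc, which releases free glucose, had 1 read in all Afp+ cells, 1 in all Pdgfra+ cells and none in Klf1+ cells, where 0 reads allow up to 0.017 RPM. Fbp1 had 1 read in Afp+, 16 in Klf1+ and 11 in Pdgfra+ cells, and in no cell of these lineages more than 10. Pck1, the cytosolic carboxykinase, stood at 2.32 RPM in Afp+ cells, all of it in 1 cell, and had no read in any other cell of the 3 lineages. The liver glucose carrier Slc2a2 had 6 reads in Afp+ cells, 0.59 RPM in Klf1+ cells, of which 1 cell held 86.7%, and no read in Pdgfra+ cells. Aldoc, the brain-type aldolase, stood at 12.98 RPM in Afp+, 0.11 RPM in Klf1+ and 4.11 RPM in Pdgfra+ cells, with 4, 1 and 2 cells past 10 reads. Aldoa made up at least 98.7% of the aldolase pair per kilobase in each lineage.

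Stage was compared within the Klf1+ cells of the bulk sort, 32 of them from E10.5 and the rest from E13.5, over 3 library pools. Pools 1 and 2 gave 6 of the 32 E10.5 cells but 30 and 17 of the E13.5 cells. Klf1+ levels also differed between pools. Ldha stood at 1636 and 1051 RPM in pools 1 and 2 and at 2624 to 2827 RPM in pools 3, 4 and 5. Ratios within the 3 pools with at least 5 cells at both stages therefore stand beside some of the sums. Of 24 tested members 1 was higher at E13.5 and 5 were lower, beside 6.83% and 5.29% of 8776 genes. The median log2 ratio was -0.54 over the tested members and -0.04 over all tested genes. Slc16a3, a lactate exporter, fell most among those called, from 228 to 61.4 RPM (log2 ratio -1.88, and -1.89 to -1.13 within pools). Pkm fell from 557 to 231 RPM (-1.65 to -0.67 within pools). Pgam1 fell from 17.02 to 6.20 RPM, Slc16a1 from 303 to 136.8 RPM and Pfkp from 43.5 to 19.5 RPM. Under the alternatives below, log2 ratios ran from -1.87 to -0.96 for Pgam1, -1.46 to 0.10 for Slc16a1 and -1.70 to -0.40 for Pfkp. Gapdh rose from 12.2 to 29.2 RPM (log2 ratio 1.20), but at this low level, with 25.1% of its exon windows shared with 223 genes, its count is uncertain.

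Pklr did not move with Pkm. It stood at 160 RPM at E10.5 and 228 RPM at E13.5, a log2 ratio of 0.51 that was positive in each of the 3 pools and not called. At E10.5 all 32 cells passed 10 reads of Pkm and 21 also passed 10 reads of Pklr, with none on Pklr alone. At E13.5, 73 cells passed both, 17 Pklr alone, 18 Pkm alone and 17 neither. By share of the pair per kilobase, Pklr was 30.7% at E10.5 and 60.4% at E13.5. These cell counts and shares were not split by pool, so stage and pool are mixed in them. Pool 1 held 2 of the E10.5 cells and 30 of the E13.5 cells, and 13 of its 32 Klf1+ cells passed 10 reads of Pkm. Ldha stood at 3423 RPM at E10.5 and 1966 RPM at E13.5 and Hk1 at 231 and 140 RPM, neither of them called. Within the 3 pools the log2 ratio lay between -0.69 and -0.56 for Ldha and between -1.05 and -0.21 for Hk1. Ldhb stood at 35.5 RPM at E10.5, where the single high cell was, and at 1.07 RPM at E13.5.

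**Figure D4:**
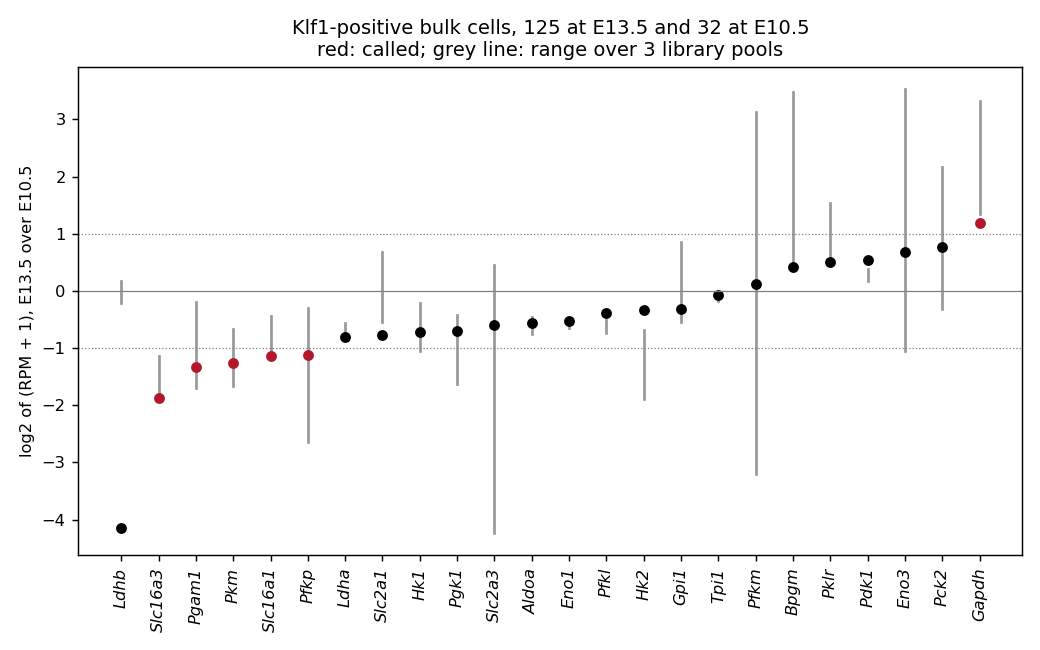
Log2 ratio of RPM + 1 between E13.5 and E10.5 for the 24 tested members in Klf1+ bulk cells, of which 32 were E10.5. Dots are all cells summed, red where called, and grey lines span the 3 library pools compared. Slc16a3, Pgam1, Pkm, Slc16a1 and Pfkp lie below -1 and Gapdh above 1.

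Globins accumulate as red cells mature, and Klf1+ cells were ordered by the share of a cell's reads on 7 globin genes. The 160 Klf1+ cells were cut into 3 parts of 54, 53 and 53 cells, with globin shares from 0.00057% to 0.023%, 0.023% to 0.13% and 0.14% to 11.9%. The same globins summed to 123.9 RPM in Afp+ and 129.6 RPM in Pdgfra+ cells, levels inside the range of the lowest part. Whether the order among cells so low in globin follows maturation was not tested. Levels were set per 1000000 reads on all other genes. Pklr stood at 152.9, 171.6 and 348 RPM from the part lowest to the part highest in globin, Bpgm at 58.3, 95.4 and 196.6 RPM, and Pfkl at 156.6, 271 and 387 RPM. Pkm stood at 364, 313 and 225 RPM, Hk1 at 222, 139.8 and 114.01 RPM, and Pgam1 at 11.4, 7.86 and 6.49 RPM. Pfkm stood at 43.5, 69.4 and 95.9 RPM. Of the 4 genes called higher in Klf1+ than in Afp+ cells, Pklr, Bpgm and Pfkm were highest in the cells richest in globin. Hk1 was lowest there. The share of all genes with either order was not worked out, so no result about the members is drawn from it. The parts held 10, 13 and 9 E10.5 cells, and among E13.5 bulk cells alone Pklr was 163.1, 173.6 and 360 RPM and Pkm 302, 205.6 and 181.7 RPM.

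Within each pool, cells were also split at the median globin share. Pfkl was higher above the median in 5 of 5 pools, Pklr and Bpgm in 4 of 5 and Pfkm in 3 of 5. Pkm and Pgam1 were lower in 5 of 5 and Hk1 in 4 of 5. Gata1 and the proliferation marker Mki67 were also higher in 4 of 5, and the share of all genes was not worked out. The order of the 3 parts is a description, since the globins were measured in the same cells and Klf1, which set the group, was itself higher above the median in 5 of 5 pools.

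**Figure D5:**
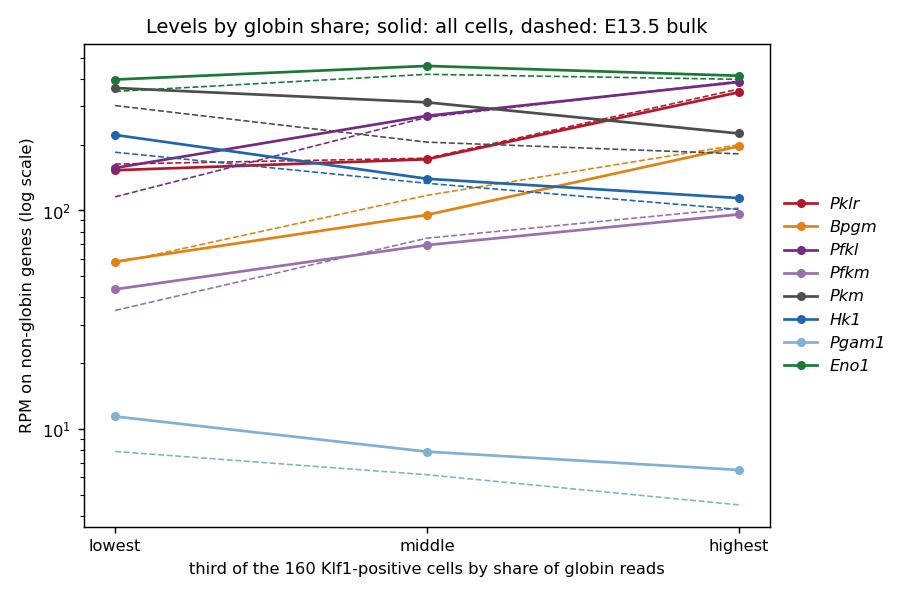
Levels of 8 genes in 3 equal parts of the 160 Klf1+ cells ordered by globin share, in RPM on non-globin genes (log axis). Solid lines are all cells and dashed lines E13.5 bulk cells. Pklr, Bpgm, Pfkl and Pfkm are highest and Pkm, Hk1 and Pgam1 lowest in the part richest in globin.

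The Lgr5-GFP+ sort was compared with the bulk sort in Pdgfra+ cells of E10.5, 66 against 76 cells over 5 pools. None of 23 tested members was called either way, beside 1.72% higher and 1.71% lower of 10671 genes. The median log2 ratio was 0.13 over the tested members. Slc2a3 had the widest ratio among them, 38.01 against 12.5 RPM, which was higher in 3 pools and lower in 2. Among Afp+ cells of E10.5 only 6 were bulk, so no calls were made there. Side by side in the 53 Lgr5-GFP+ and 6 bulk cells, Ldha stood at 2569 and 2179 RPM, Ldhb at 983 and 1372 RPM, Pkm at 727.8 and 855 RPM, Hk2 at 102.3 and 49.1 RPM and Pklr at 3.58 and 9.14 RPM. No stage comparison was possible in Pdgfra+ bulk cells, with 1 cell at E13.5.

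Other genes of the pathway and its regulators, 49 in a fixed list, were read beside the members. Hif1a, a hypoxia factor in that list, had no read in any cell. Whether that is a gap of the count table was not worked out. Between Klf1+ and Afp+ cells 28 were tested, 5 were higher (Pdk2, Pdk3, Mpc1, Myc and Gata1) and 7 lower (Hkdc1, Pfkfb3, Slc16a7, Mpc2, Slc37a4, Hnf4a and Mlxipl), beside 11.5% and 14.8% of all tested genes. Gata1 and Hnf4a are also among the lineage markers. Pdk3, a sister of Pdk1, stood at 82.1 RPM in Klf1+ and 5.08 RPM in Afp+ cells. Pfkfb3, which makes the activator of phosphofructokinase, stood at 2.76 and 86.5 RPM, and Hkdc1, a hexokinase relative beside Hk1 on chromosome 10, at 0.28 and 34.9 RPM. Slc37a4, which brings glucose 6-phosphate to G6pc, was at 73.2 RPM in Afp+ cells, where G6pc had 1 read. G6pc3, also in the fixed list, had 44443 reads over all cells of the series. Between Pdgfra+ and Afp+ cells 33 were tested, with 2 higher and 7 lower, beside 14.1% and 8.06% of all tested genes. Between Klf1+ and Pdgfra+ cells 27 were tested, with 3 higher and 4 lower, beside 10.9% and 20.2%. With stage in Klf1+ cells 2 of 21, Arnt and Vhl, were higher and none lower, beside 6.83% and 5.29%. With sort in Pdgfra+ cells none of 27 was called, beside 1.72% and 1.71%.

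Markers of other cells were read in the same groups. The 5 leukocyte markers summed to 97.7 RPM in Afp+, 54.3 RPM in Klf1+ and 0.83 RPM in Pdgfra+ cells, and to 5882 RPM in the highest Afp+ cell. The 4 megakaryocyte markers summed to 53.8, 73.01 and 22.3 RPM and the 5 endothelial markers to 4.45, 10.1 and 16.2 RPM. Erythroid markers summed to 66.04 RPM in Afp+ cells and 9022 RPM in Klf1+ cells, and hepatoblast markers to 9.54 RPM in Klf1+, 387 RPM in Pdgfra+ and 19595 RPM in Afp+ cells. The 9 mesenchymal markers summed to 317 RPM in Afp+ cells, with a median of 8.74 RPM over cells and 20738 RPM in the highest cell, beside 25.6 RPM in Klf1+ and 5173 RPM in Pdgfra+ cells. The part of such cells in the member values was not tested. Single cells also weighed on some values: without the cell with most reads of the gene on each side, which need not be a cell with such markers, the log2 ratios of Klf1+ over Afp+ cells were 6.15 for Pklr, 5.46 for Hk1, 4.26 for Pfkm, 2.36 for Bpgm and -2.57 for Hk2.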

How the data were processed

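Smart-seq2 libraries were made from single mouse liver cells of E10.5 and E13.5. The authors aligned single-end reads of 50 bases to GRCm38.p6 with spike-in sequences added (STAR 2.6.0c), counted uniquely aligned reads per gene of Ensembl 93 (featureCounts in Subread 1.6.2) and deposited raw counts for the 653 cells (E10.5: 203 bulk and 211 Lgr5-GFP+; E13.5: 159 bulk and 80 Lgr5-GFP+) that passed their filters on read number, gene number, mitochondrial and spike-in share. A smaller deposited table of normalised values for selected genes was not used. Of 54195 gene identifiers 54042 were given symbols, 25903 had no read in any cell, and the table held 0 spike-in rows. No count columns were left unused, and no pair of cells had identical values. Of 365 index pairs 230 occurred in more than 1 library pool. Doublets were not called; 10 cells with more than 1 lineage marker were set aside.

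Reads were summed over the cells of a lineage (more than 10 reads of Afp, Klf1 or Pdgfra) and divided by the summed total to give RPM, and by union exon length (GENCODE M21) to give RPKM. Ratios used a pseudocount of 1 RPM and genes with a mean of at least 5 RPM. Calls needed a log2 ratio of at least 1 and 1 sign in all pools with at least 5 cells on both sides, and at least 10 cells on both sides overall. With 1 sample per group no p-value was computed; intervals are exact Poisson for reads and Clopper-Pearson for shares of cells, at 95%, and a count of 0 was read as at most 3. Reads carry no molecular identifiers, so intervals cover counting error only. Exon windows of 50 bases shared with other annotated transcripts were counted as a measure of reads lost to unique alignment. The scripts were tested on simulated counts with known changes. The named genes were the 29 members and 49 fixed pathway genes (1 more planned symbol is absent from the names). The members, lists and tests were chosen with earlier results of these data known. Python 3.11.15, numpy 2.4.6, pandas 2.3.3, scipy 1.17.1 and matplotlib 3.10.9 were used. Alternatives covered scaling, thinning, pseudocount, level filter, marker limit, stage, sort, gene length, and leaving out pools or cells.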

Additional observations from a re-analysis of the deposited data

Results flagged for a closer look

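Fbp1, the fructose bisphosphatase of gluconeogenesis, was at 1.66 RPM in the 272 cells that passed none of the 3 lineage markers and entered no comparison, above its level in each lineage group, the highest of which was 0.089 RPM. Of its 551 reads there, 444 lay in 1 cell, and 2 cells had more than 10.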

How the results depend on the processing

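Of 266 counts and shares recomputed under an alternative, 246 stayed within 1.5 times their value (counts of members), 1 SD over the pools (shares) or the counting interval (cells). Of 667 ratios of called genes, 592 stayed called, 69 kept the direction but not the call and 6 turned. Part of this tally was fixed in advance, since dropping the level filter cannot undo a call. With a pool left out, fewer signs had to match. The limit for shares was wide in places, at 26.7 points for the Pdgfra+ share of Bpgm. A value of 47.9% on unshared exon windows, in place of 58.98%, was thus counted as within it. The marker limit mattered most: with at least 1 read in place of more than 10, the members called were 4 for Klf1+ against Afp+, 1 for Pdgfra+ against Afp+ and 7 for Klf1+ against Pdgfra+ cells, and 1 for the sort in Pdgfra+ cells. All 6 turned ratios came from it: Slc2a3 at 0.57 and Slc16a3 at 0.31 (Pdgfra+ over Afp+), Pfkm at -0.19 and Bpgm at -0.13 (Klf1+ over Pdgfra+), and Gapdh at -0.66 and Slc16a1 at 0.10 (E13.5 over E10.5 in Klf1+ cells). Pdgfra+ cells were then 12.3% of all cells, against 22.97% in the main values and 19.6% with more than 50 reads. At each limit, cells past more than 1 marker were left out, so at the limit of 1 read a cell with a read of another marker left its lineage. Stage calls in Klf1+ cells were 3 with a pseudocount of 5 and 10 without the cell with most reads on each side, which added Hk2, Bpgm, Eno3 and Pck2. Sort calls in Pdgfra+ cells, 0 in the main values, were 1 without pool 1, 1 without pool 3, 4 in pools 1 and 2 only and 1 in pools 3, 4 and 5 only. At E10.5 alone the Klf1+ share of Pklr was 30.7% and of Bpgm 74.6%. In pools 1 and 2 only the Klf1+ shares of Pklr and Ldhb were 33.8% and 3.24%, and the Pdgfra+ shares of Hk1 and Ldhb were 4.85% and 57.9%. With the longest transcript as length, the Pdgfra+ shares of Hk1 and Eno3 were 25.6% and 37.01%. The cause of each change was not tested.

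Alternatives on pools 1 and 2, on pools 3, 4 and 5, on unique windows and without the top cells were chosen after seeing the data. With size factors by the median of ratios, Eno3 (Pdgfra+ over Afp+) and Pgam1 (Klf1+ over Pdgfra+, -0.97) lost their calls. Klf1+ over Pdgfra+ cells, that scaling moved the median of all genes from -0.16 to 0.00. Calls were also lost without pool 1 (Pdgfra+ over Afp+, Hk2 at -0.79, Eno3 at 0.83 and Slc16a3 at -0.99; Klf1+ over Pdgfra+, Bpgm at 0.97) and without pool 2 (Pdgfra+ over Afp+, Slc2a3 at -0.26 and Ldhb at -0.69; stage, Slc16a1 at -0.49). Slc2a3 lost it again without pool 4 (-0.91), and in the stage comparison Pfkp lost it without pool 3 (-0.45) and Gapdh without pool 4 (0.86) or pool 5 (0.85). No call could be made with bulk Afp+ cells (6 cells) or for stage in pools 1 and 2 only. No paired analysis was possible because the labels give cells no shared animal, litter or replicate. Depth limits genes near 0: 3 reads are 0.040 RPM in Afp+ and 0.017 RPM in Klf1+ cells.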

Other observations

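Among the 272 cells with no lineage marker, Pck1 stood at 1.52 RPM, all of it in 1 cell, so that across the series Pck1 passed 10 reads in 2 cells. In these cells Ldhb stood at 301 RPM, Hk1 at 36.3 RPM, Bpgm at 62.7 RPM and Pklr at 2.09 RPM. The 3 Klf1+ cells of the E13.5 Lgr5-GFP+ sort held Pklr at 594 RPM and Ldhb at 0.92 RPM. The 2 Afp+ cells of the same sort held Ldhb at 0.91 RPM and Hk2 at 553 RPM, beside 983 and 102.3 RPM in the 53 E10.5 Lgr5-GFP+ cells with Afp. The 7 Pdgfra+ cells of that sort held Ldhb at 302 RPM and Hk1 at 67.9 RPM.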
